A study of Nasonia vitripennis with 51 samples.

Results

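On chromosome 5 of the parasitoid wasp Nasonia vitripennis, 101 short clusters held 683 of the 809 methylated CpGs (84.4%). A CpG counted as methylated when its mean methylation level, the methylated share of its reads, was at least 50% over the 18 sucrose-fed samples. A cluster was a run of at least 3 such CpGs with neighbours at most 500 bp apart. Over all sequences of the table the same rule gave 13281 CpGs in 2063 clusters. Over all sequences 82.1% of methylated CpGs lay in clusters. Chromosome 5 had 183810 CpGs with reads in all sucrose samples, of which 0.440% were methylated. The members were thus chosen by their levels in the sucrose samples, so these levels and differences from them are given as a description with no test. Tests used only the samples fed 5-aza-dC, apart from 1 alternative fit that also took the sucrose samples.

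In insects such as Nasonia, DNA methylation is sparse and falls almost wholly on CpG dinucleotides, mostly in the bodies of genes that are expressed in many tissues. Maintenance methyltransferases of the Dnmt1 type copy the mark to the new strand after replication, and Dnmt3-type enzymes can add it to unmethylated DNA. 5-aza-2'-deoxycytidine (5-aza-dC) is a cytidine analogue that traps methyltransferases once it has been built into DNA, so its known action depends on replication.

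All females came from AsymC, a wild-type strain cured of Wolbachia, and each sample was a pool of 10 females, taken as heads or as bodies (thorax with abdomen). The control regime was 20% sucrose for 24 h (9 head and 9 body samples). The other regimes added 10 µM 5-aza-dC to that solution for 24 h (7 head and 9 body samples) or 48 h (8 head and 9 body samples). Females were harvested 0, 24 or 48 h after feeding, which makes 18 combinations, 15 with 3 samples and 3 with 2 samples, since library preparation failed for 3 samples with little DNA. No sucrose group was fed for 48 h, and the set of CpGs with reads was fixed within a regime and differed between regimes, so a regime cannot be told apart from a batch of libraries that followed it. A pool mixes many cell types, and a level of 50% can be many cells with a part of their copies methylated or part of the cells with all copies methylated. Gene models and sequence of the table's genome build were not used here, so clusters are given by the table's positions on chromosome 5.

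The members had a mean of 26.6 reads per sample in sucrose samples, against 23.0 over all chromosome 5 CpGs with sucrose reads. Reads in the 24 h samples covered 624 of the 683 members (91.4%), whereas 219 members (32.1%) had reads in the 48 h samples. Over all chromosome 5 CpGs with sucrose reads the shares were 82.0% and 44.0%. Members were thus covered more often than other CpGs at 24 h and less often at 48 h. The members with 48 h reads may not stand for all members. In all 51 samples together, 160 members had reads. At least 3 members had 24 h reads in 92 clusters, while 53 clusters had no member with 48 h reads. The 2 shallowest samples were a head sample (replicate 1 of those taken 48 h after the 24 h exposure), with 6.49 reads per member, and a body sample (replicate 1 of those taken 0 h after the 48 h exposure), with 5.84. Both had the minimum of 3 reads at each CpG used, where 1 read moves a level by many points. The titles of 9 body samples disagreed with their listed harvest time or lacked one, and the listed time was kept.

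The clusters were small. A cluster had 3 to 20 members (median 5) and spanned 10 to 1124 bp (median 299 bp), and over all sequences the medians were 5 members and 284 bp. Together the spans covered 37186 bp, or 0.361% of the stretch from the first to the last listed position, 4704 to 10312718. There were 20 clusters with 3 members, and 21 clusters with 10 or more members held 304 members (44.5%). The longest cluster, from 116830 to 117953, had only 9 members. Neighbouring members lay a median of 31 bp apart, and 398 of the 582 gaps (68.4%) were 50 bp or less.

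Nearly all CpGs inside a cluster were methylated. Of the 763 CpGs with sucrose reads inside cluster spans, 683 were members and 80 were below the threshold. Of those 80, 25 had a sucrose mean under 10%, and 55 lay between 10% and 50%. In 73 clusters no CpG fell below 50%. Spans had 20.5 CpGs per kb, against 17.8 along the chromosome. Each span starts and ends on a CpG by definition, which raises the density of short spans. These values therefore cannot show whether clusters lie in DNA with denser CpGs. The cluster means ran from 62.8% to 95.7% in sucrose samples, with a median of 85.0%. Among the members, 313 had a sucrose mean of 90% or more, 185 lay between 80% and 90%, and 185 lay between 50% and 80%. Just inside the threshold were the members at 3518264 (50.3%), 7825813 (51.0%) and 2206266 (51.0%). Just outside it were the CpGs at 3667940 (49.7%), 3781612 (49.1%) and 8120331 (48.9%), each within 500 bp of a member.

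Clusters were uneven along the chromosome. The stretch from 8 to 9 Mb held 22 clusters with 191 members, or 12.6 members per 1000 CpGs with sucrose reads, and the next Mb held 14 clusters with 93 members (6.70 per 1000). Both stretches from 3 to 5 Mb held 17 clusters, with 119 and 92 members. By contrast, the stretch from 1 to 2 Mb held 1 cluster with 4 members (0.675 per 1000), and that from 5 to 6 Mb held 5 clusters with 22 members (0.965 per 1000). The gap from a cluster to the next ran from 729 to 1465491 bp (median 28026 bp), and 35 clusters had another within 5000 bp. The mean sucrose level of the clusters in each Mb ran from 81.7% to 95.7%, the highest being the single cluster between 1 and 2 Mb.

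Levels were lower with distance from the cluster edge over the first few bins, also in samples the rule had not used. In the 16 samples fed 5-aza-dC for 24 h, members averaged 84.5% ± 3.74 (SD), and CpGs inside spans that were not members averaged 21.4% ± 3.59. CpGs 1 to 50 bp outside a cluster averaged 16.9% ± 3.60, those 51 to 100 bp away 12.0% ± 2.01, and those 101 to 200 bp away 5.00% ± 0.958. The level was 3.26% ± 1.07 from 201 to 300 bp, 2.46% ± 1.08 from 301 to 500 bp and 3.65% ± 1.09 from 501 to 1000 bp. Beyond 20000 bp it was 1.92% ± 0.923. The same distances in the 18 sucrose samples gave 15.0% ± 3.12 at 1 to 50 bp, 10.3% ± 0.926 at 51 to 100 bp and 5.05% ± 0.546 at 101 to 200 bp. The nearest 50 bp rested on few CpGs, 42 in sucrose and 33 in 24 h samples, and the rule itself placed no methylated CpG within 500 bp outside a cluster.

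**Figure D1:**
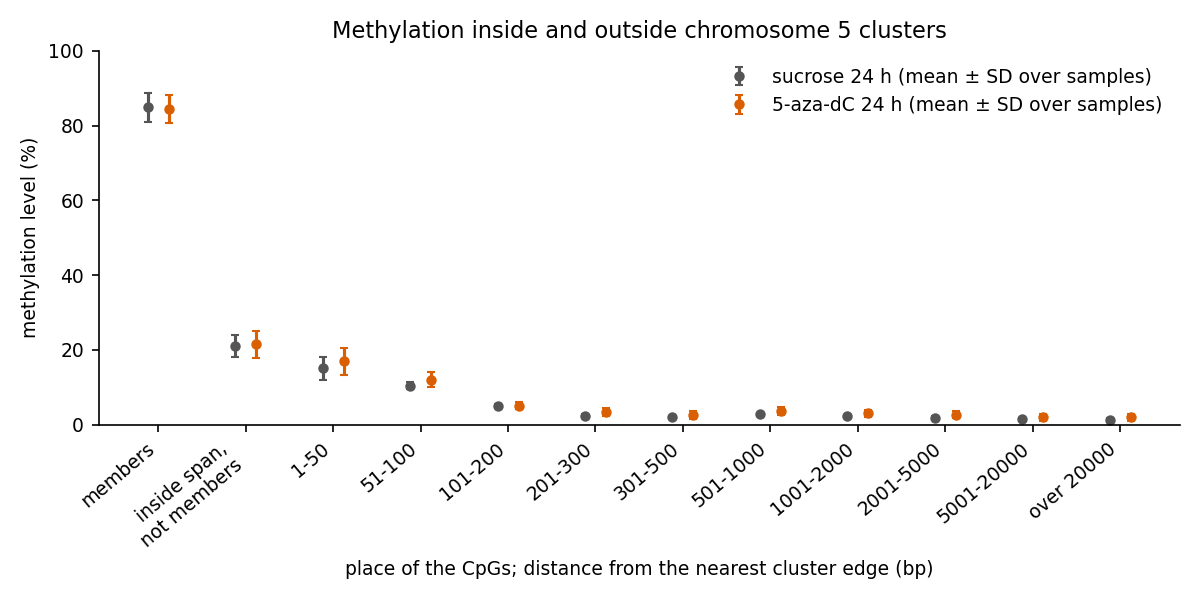
Mean methylation level (%) of CpGs by their place relative to chromosome 5 clusters, for members, for CpGs inside spans that are not members, and by distance from the nearest cluster edge (bp). Points are means and bars SDs over 18 sucrose samples (grey) and 16 samples fed 5-aza-dC for 24 h (orange); the level was 84.5% at members and 5.00% at 101 to 200 bp in the 24 h samples.

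Taken over all clusters together, first and last members were less methylated than the members between them. In 24 h head samples, the 182 edge members averaged 85.1% ± 1.90 (lowest 81.1%, highest 86.3%, n = 7), and the 442 interior members 89.9% ± 0.629 (89.1% to 90.7%). In 24 h body samples the edge members averaged 76.9% ± 1.24 (75.4% to 79.4%, n = 9) and the interior members 83.3% ± 0.974 (81.9% to 84.8%). Edge and interior levels did not overlap between samples in either tissue. The 48 h samples gave the same order over fewer members, with 42 edge members at 83.6% ± 2.20 in heads and 74.7% ± 2.18 in bodies, and 177 interior members at 90.5% ± 0.679 and 83.7% ± 1.58. These means give large clusters more weight among interior members. Within clusters, each weighted equally, edge minus interior averaged -3.72 points ± 1.42 in 24 h heads (n = 7) and -4.47 points ± 1.28 in 24 h bodies (n = 9) over 96 clusters. The edges were the lower in 58 of the 96 clusters in heads and in 61 in bodies, so many clusters had the opposite order. In 48 h samples, edge minus interior averaged -7.01 points ± 2.08 in heads (n = 8) and -9.10 points ± 1.32 in bodies (n = 9) over 34 clusters. There the edges were the lower in 26 clusters in heads and 22 in bodies, and the higher in 8 and 12.

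Members a few bases apart had similar levels. Over the 24 h samples, the levels of pairs of members of a cluster 2 to 20 bp apart had r = 0.678 (219 pairs), and pairs 21 to 50 bp apart had r = 0.406 (297 pairs). At 51 to 100 bp r was 0.0267 (396 pairs), at 101 to 200 bp 0.116 (539 pairs) and at 201 to 500 bp 0.0105 (822 pairs). These are descriptions across pairs of sites from the same libraries, and close members often share reads. For the difference between heads and bodies the values were r = 0.534 at 2 to 20 bp, 0.261 at 21 to 50 bp, -0.0806 at 51 to 100 bp, 0.210 at 101 to 200 bp and 0.0834 at 201 to 500 bp, an uneven course. Levels still differed widely inside a cluster. Over the 92 clusters with 24 h values, the gap between the least and the most methylated member had a median of 24.2 points and ran from 1.77 to 64.6 points.

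Clustered CpGs were more methylated in heads than in bodies in each regime. Over the 160 members with reads in all samples, 24 h heads averaged 87.9% ± 0.449 (lowest 87.3%, median 88.0%, highest 88.6%, n = 7) and 24 h bodies 81.5% ± 0.986 (80.2%, 81.6% and 83.2%, n = 9). In the 48 h samples, heads averaged 89.5% ± 1.10 (87.9%, 89.4% and 91.0%, n = 8) and bodies 83.0% ± 1.46 (80.4%, 83.2% and 85.4%, n = 9). Every head sample lay above every body sample, also across regimes. Sucrose heads averaged 89.2% ± 0.880 and sucrose bodies 82.1% ± 1.05 (n = 9 each). Over the 624 members with sucrose and 24 h reads, heads averaged 88.5% ± 0.482 in sucrose and 88.5% ± 0.943 after 24 h of 5-aza-dC, and bodies 81.4% ± 0.688 and 81.4% ± 0.965. These means over members are given with no test, since the members were chosen with results known.

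**Figure D2:**
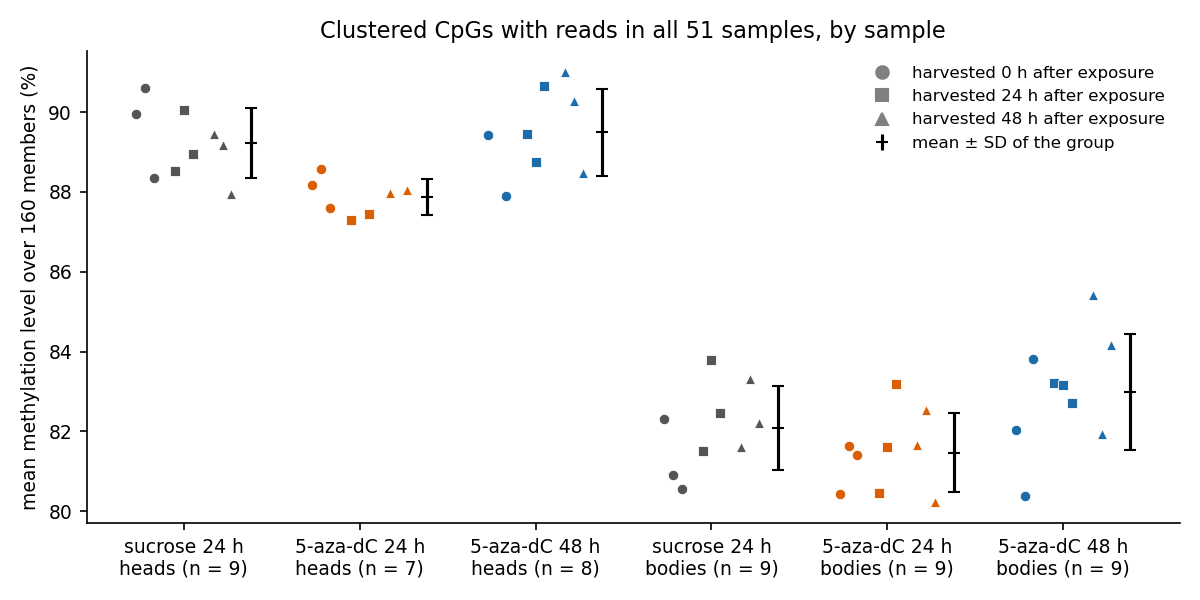
Mean methylation level (%) over the 160 members with reads in all 51 samples, one point per sample, with circles, squares and triangles for harvest 0, 24 and 48 h after exposure; the axis starts at about 80%. Bars are the mean ± SD of each regime and tissue; all head samples (87.3% to 91.0%) lie above all body samples (80.2% to 85.4%).

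Single clusters were tested for the tissue difference in the 33 samples fed 5-aza-dC, with a quasi-binomial logistic regression of methylated and total reads on tissue, exposure length and harvest time. Clusters entered when at least 3 members had at least 3 reads in each of those samples, with Benjamini-Hochberg adjustment across the clusters of all sequences. The test pooled reads over members, so members with more reads weighed more, whereas levels and differences in points weighed members equally. A difference in points and its p-value can therefore disagree. Of 340 clusters tested, 82.6% differed between tissues at an adjusted p under 0.05. In heads 279 of these were higher and 2 lower. On chromosome 5, 22 of the 23 tested clusters differed, each with a higher level in heads. The median difference, averaged over the combinations of exposure length and harvest time, was 8.35 percentage points over the 23 clusters and 5.64 over all 340. Although the calls were frequent, no chromosome 5 cluster had every head sample above every body sample, and 8 of the 340 clusters did (2.35%).

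The largest tissue difference was in the cluster from 123020 to 123094, near the start of the listed sequence. Its 3 members with reads in all samples had 67.0% to 100% in heads (median 80.2%, 15 samples) and 50.0% to 73.5% in bodies (median 62.7%, 18 samples), so the groups overlapped only slightly. The difference was 20.3 points, with an adjusted p of 2.52e-06 by the quasi-binomial F test. At the member at 123094, which closes the cluster, heads averaged 67.7% ± 16.4 and bodies 39.8% ± 13.9, a difference of 29.6 points (adjusted p = 0.000486, quasi-binomial F test). Its neighbour at 123091 was 24.2 points higher in heads. Sucrose samples had 71.4% ± 8.23 in heads and 43.7% ± 8.36 in bodies at 123094 (n = 9 each).

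The next largest differences were in the clusters from 3925359 to 3925866 (14.5 points), 3411787 to 3412270 (13.4 points), 4777578 to 4777669 (12.7 points) and 2206002 to 2206353 (11.5 points). In the 3925359 cluster, heads had 71.2% to 100% (median 83.1%) and bodies 56.3% to 85.4% (median 68.5%), with an adjusted p of 1.70e-07 by the quasi-binomial F test. Its member at 3925635 was 25.2 points higher in heads, at 68.7% ± 13.3 against 43.9% ± 11.4. The lowest adjusted p, 2.56e-09 by the quasi-binomial F test, was that of the cluster from 2714195 to 2714429. There heads had 90.7% to 98.5% (median 94.5%) and bodies 76.2% to 91.1% (median 86.0%), so the samples met only in a narrow range. Its member at 2714354 was 24.7 points higher in heads (86.6% ± 8.27 against 62.6% ± 15.5).

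The clusters with the most members had small tissue differences in percentage points. The clusters from 8137080 to 8137770, 2688974 to 2689955 and 8005819 to 8006593 had 20 members each, and that from 4576891 to 4577469 had 19. With reads in each 5-aza-dC sample required, the test used 11, 8, 10 and 7 members of them. In the first, heads averaged 96.6% ± 1.38 and bodies 93.7% ± 1.67, a difference of 2.85 points (adjusted p = 3.75e-05, quasi-binomial F test). The difference was 2.19 points in the 2688974 cluster, 3.21 points in the 4576891 cluster and 0.902 points in the 8005819 cluster, and all 3 passed the test. Over more members the differences were wider: the 8005819 cluster had 90.4% ± 1.91 in heads and 87.4% ± 1.61 in bodies over 18 members in 24 h samples, and the 2688974 cluster 91.9% ± 2.24 and 88.0% ± 3.32 over 19 members. The fifth of these, from 8119461 to 8120583 with 20 members (14 tested), was the tested cluster without a call, with heads at 80.2% ± 4.71 and bodies at 76.5% ± 3.95 (adjusted p = 0.326, quasi-binomial F test). Over its pooled reads, the tissue effect on the model's log odds scale was 0.0856 (SE 0.0823), against 0.275 (SE 0.0957) in the 8005819 cluster.

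At single CpGs, 4.39% of the 20459 tested over all sequences differed between tissues, a set that took all CpGs with at least 3 reads in each 5-aza-dC sample and a mean of at least 10%. Of the 160 members tested, 53 differed, all with a higher level in heads. The difference was positive at 143 of the 160, with a median of 4.52 points, against -0.971 points over all tested CpGs, whose levels started far below those of the members. No member had all head samples above all body samples, and 4 of the 20459 CpGs did (0.01955%). The member at 8904691, 24.6 points higher in heads (adjusted p by the quasi-binomial F test under 0.05), completed the 5 largest called differences with those at 123094, 3925635, 2714354 and 123091. Of these, 123091 and 123094 share most of their reads and are not separate differences.

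Since few members had 48 h reads, the tissue test was repeated in the 16 samples of 24 h alone, a choice made after the coverage had been seen. Of 1863 clusters over all sequences, 74.9% then differed, and 73 of the 92 chromosome 5 clusters did, all 73 higher in heads. The median difference was 7.77 points over the 92 clusters and 6.47 over the 1863. Every head sample lay above every body sample in 16 of the 92 clusters (17.4%) and in 174 of the 1863 (9.34%). At single CpGs 0.536% of 68053 were called, and 20 of the 624 members were, all higher in heads. All head samples lay above all body samples at 9 of the 624 members (1.44%) and at 225 of the 68053 CpGs (0.331%). In the 48 h samples alone, 27 of 33 clusters passed, beside 57.3% of 618 over all sequences, and 1 of 219 members, beside 0.0581% of 43065 CpGs.

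**Figure D3:**
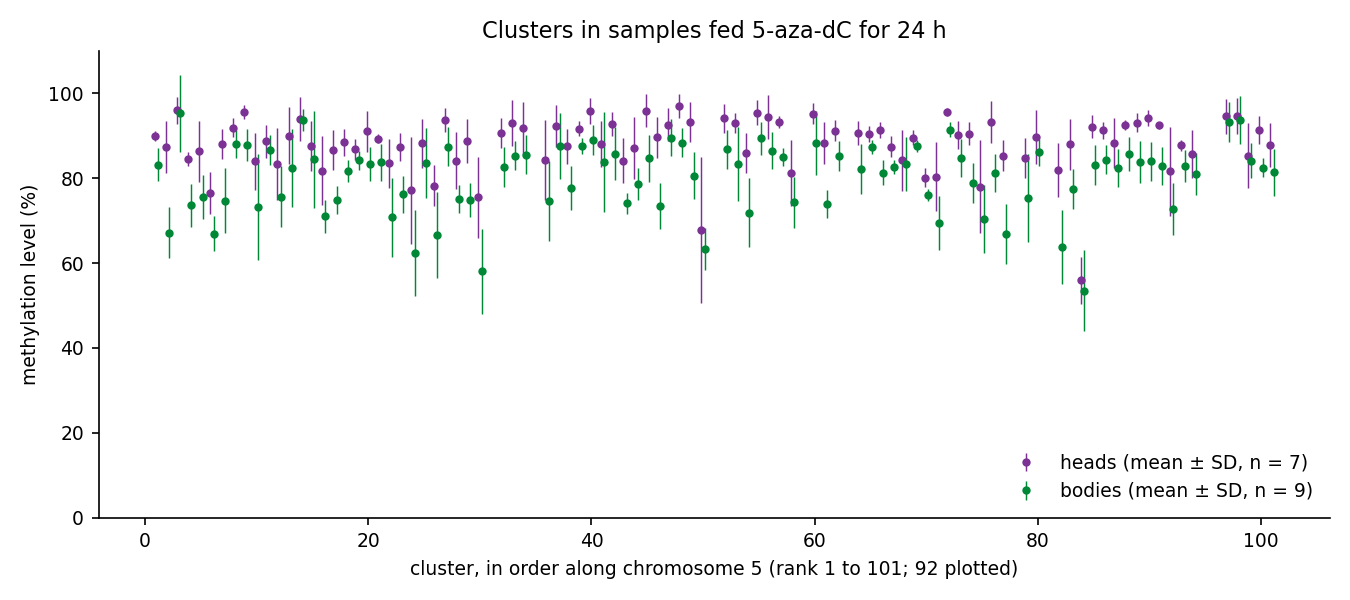
Mean methylation level (%) of each of the 92 chromosome 5 clusters with at least 3 members with 24 h reads, in rank order along the chromosome, in samples fed 5-aza-dC for 24 h. Points are means and bars SDs over 7 head samples (purple) and 9 body samples (green); the plain head mean is the higher in all 92 clusters.

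The largest tissue differences in the 24 h samples included clusters that could not be tested with 48 h reads. In the cluster from 8700150 to 8700207, whose 5 members lie within 58 bp, heads had 70.5% to 90.0% (median 84.0%) and bodies 48.3% to 78.8% (median 64.0%), a difference of 18.8 points with an overlap. In that from 8410847 to 8411029, heads had 78.4% to 89.8% (median 86.2%) and bodies 55.8% to 78.1% (median 64.1%), a difference of 18.3 points with no overlap. The cluster from 4095971 to 4096036 differed by 17.1 points, and that from 5076402 to 5076773 by 15.9 points. The 123020 cluster stood at 20.8 points with 4 members. Adjusted p-values of these 5 by the quasi-binomial F test ran from 0.000137 to 0.00258. The cluster from 3470273 to 3470807 was the single one with a difference below 0 (-0.370 points) when harvest times were weighted equally. Its plain means over samples had the opposite order, 93.9% ± 5.13 in heads and 93.7% ± 2.58 in bodies. Among single members, that at 4085282 had 68.0% to 100% in 24 h heads and 21.4% to 61.2% in 24 h bodies, a difference of 33.9 points with no overlap. The members at 8700183 (27.5 points), 3925635 (26.9), 8411029 (26.6) and 7995774 (25.1) followed. By the quasi-binomial F test, the adjusted p-values of these single members ran from 0.0333 to 0.0492, just under the threshold. Their 24 h head values rested on as few as 4, 4, 3, 3 and 8 reads, in the order named.

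In percentage points, the tissue difference was largest at members of moderate level. In 24 h samples, the 168 members with a sucrose mean of 50% to 80% averaged 75.1% ± 2.51 in heads (lowest 70.7%) and 62.4% ± 1.44 in bodies (highest 65.2%), a difference of 12.6 points. The 166 members between 80% and 90% differed by 8.15 points, at 90.0% ± 1.31 and 81.9% ± 1.13. The 290 members at 90% or above differed by 3.24 points, at 95.5% ± 0.276 and 92.2% ± 0.923. No head sample overlapped a body sample in any of these classes. Expressed as unmethylated reads, heads had 0.664, 0.551 and 0.583 of the body level in the same order, so on that scale the moderate members had the smallest relative difference. In 48 h samples the differences were 14.3, 8.40 and 2.81 points over 54, 60 and 105 members. The classes were cut on sucrose means, and no test was made between them.

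Most members of a cluster leaned the same way. In 24 h samples, the head mean was above the body mean at 540 of 624 members (86.5%), and in 50 of the 92 clusters it was so at every member. Differences at single members ran from -10.4 to 35.9 points. The cluster difference of heads from bodies in 24 h samples, a median of 7.72 points between the plain group means, had r = 0.595 with that in sucrose samples over the 92 clusters. Those values come from separate pools, and the clusters share libraries within a regime, so the correlation is a description.

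Most clusters after 24 h of 5-aza-dC lay close to their level in sucrose. The 24 h level minus the sucrose level, averaged over tissues, had a median of 0.301 points over the 92 clusters, and 88 of them lay within 5 points. The lowest differences were those of the clusters from 5839818 to 5840069 (-12.5 points, 4 members), 8869467 to 8869661 (-8.08 points, 4 members) and 8119461 to 8120583 (-5.85 points, 16 members). The highest was 5.68 points in the cluster from 8832270 to 8832425. For the 48 h samples the median over 33 clusters was 0.754 points, from -2.37 to 7.34. Since members had to reach 50% in sucrose, members that were high there by chance entered and members that were low by chance did not, so later levels can come out lower with no change. These differences carry no test.

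Among single members, 96.0% of 624 lay within 10 points of sucrose after 24 h of 5-aza-dC, and 97.3% of 219 did after 48 h. After 24 h, 8 members were over 20 points lower than in sucrose and none was over 20 points higher. Most of the 624 members were too high in sucrose to rise by over 20 points, since a level cannot exceed 100%. The counts of lower and higher members therefore cannot show a direction of change. After 48 h no member differed by over 20 points. The 8 were picked after their values were seen. Of them, 5 lay in the last part of 2 of the largest clusters, at 8006573 and 8006593 in the cluster from 8005819 and at 8120311, 8120329 and 8120583 in that from 8119461. The other 3 were at 5839893, 7176528 and 9947337. At 8006593, the last member of its cluster, sucrose samples had 87.5% to 100% (median 93.9%, 18 samples), 24 h samples 50.0% to 95.2% (median 75.0%, 16 samples) and 48 h samples 88.5% to 100% (median 93.3%, 17 samples). The 24 h samples thus spread below a range that sucrose and 48 h samples shared. At 8120311, sucrose samples had 25.8% to 75.8% (median 59.0%), 24 h samples 13.8% to 63.6% (median 30.9%) and 48 h samples 0% to 88.9% (median 52.9%), with wide overlap.

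**Figure D4:**
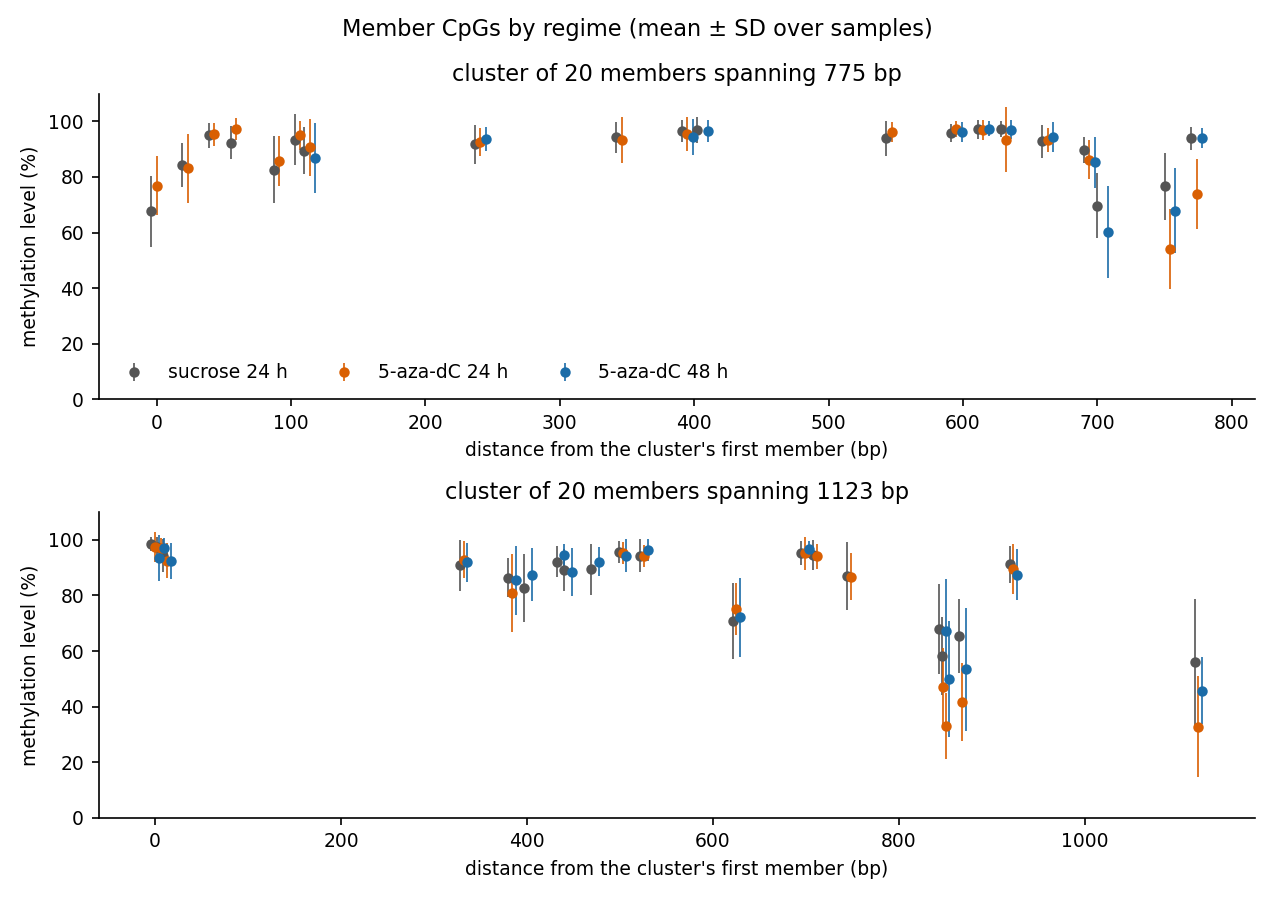
Methylation level (%) of each member with reads against its distance (bp) from the first member, in the clusters starting at 8005819 (20 members, 775 bp) and 8119461 (20 members, 1123 bp). Points are means and bars SDs over samples of each regime (18 sucrose, 16 fed 5-aza-dC for 24 h, 17 for 48 h), drawn slightly apart; at the last 2 members of the first cluster, and at 4 of the last 5 of the second, the 24 h means lie below both others, as at 8006593 with 73.8% against 93.9% in sucrose and 94.1% after 48 h.

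The comparison of 48 h with 24 h of 5-aza-dC used no sucrose sample and was tested in the same model. A rise here means a higher level in the 48 h samples, which were separate pools. Exposure length cannot be told apart from a batch of libraries that followed it. Over all sequences 7.35% of the 340 clusters differed, 15 higher and 10 lower after 48 h, and on chromosome 5 only 1 of 23 did, a share near the background. This was the cluster from 8005819 to 8006593, over 10 members with reads throughout. It had 80.8% to 92.3% in 24 h samples and 87.3% to 95.3% in 48 h samples, with an overlap, and a rise of 3.34 points (adjusted p = 0.0182, quasi-binomial F test). The member at 8006593, 1 of the 10, rose by 21.7 points and so makes up much of this mean rise. The cluster and that member are thus not separate results, and a rise over the whole cluster is not shown. The call was lost by limma, and also without a single sample of the 24 h exposure taken 48 h later (body replicate 1 or head replicate 2), which left 0 clusters called. The 8119461 cluster was 4.19 points higher after 48 h and did not pass (adjusted p = 0.0736, quasi-binomial F test).

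At single CpGs, 0.772% of the 20459 tested differed between 48 h and 24 h. Of the 160 members tested, 5 differed (3.13%), all higher after 48 h. The directions of the calls over all sequences are not given here, so this shared direction has no background beside it. The member at 8006593 was 21.7 points higher in 48 h samples, at 94.1% ± 3.55 against 73.8% ± 12.5 (adjusted p = 2.37e-05, quasi-binomial F test). It kept its call in all 40 alternatives computed for it. Sucrose samples stood at 93.9% ± 4.12 there, near the 48 h level. The rise was 20.1 points at 8120308, from 47.0% ± 14.2 to 67.3% ± 18.5, and 17.9 points at 8120311, from 33.0% ± 11.9 to 50.0% ± 20.9. These 2 members lie 3 bp apart, so most reads that cover one cover the other. The member at 8130069 rose by 15.6 points, from 66.0% ± 12.8 to 81.2% ± 10.6, and that at 2206161 by 14.2 points, from 40.9% ± 16.2 to 55.8% ± 11.2. Without head replicate 2 of the 24 h exposure taken 48 h later, 1 member was called, 8006593. For 8006593 and 8120311, the 24 h values that enter this test are the values that had placed them among the 8 members low against sucrose.

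Apparent methylation at nearly unmethylated CpGs also differed between regimes. CpGs that were not members and had a mean under 2% stood at 0.608% ± 0.236 in sucrose samples (n = 18), 1.06% ± 0.812 in 24 h samples (n = 16) and 2.24% ± 2.08 in 48 h samples (n = 17, highest 8.34%). With this level as a covariate, 2 clusters and 3 members were called higher after 48 h, beside 6.18% of the clusters and 0.591% of the CpGs over all sequences called in either direction. The part of this background in the levels of the members was not tested further.

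The cluster from 3411787 to 3412270 varied between samples far more than any other among the 24 h samples, and was singled out for that after its values were seen. Beyond the effect of tissue and harvest time, its dispersion, the spread between samples relative to binomial counting, was 23.5 in 24 h samples, against a median of 1.86 over 92 clusters. Reads that cover several members count at each, which can raise this measure in any cluster. It was 2.13 in sucrose and 5.99 in 48 h samples, where the medians were 1.78 and 2.30. At its 5 last members, 3412219 to 3412270, which had reads in all samples, 24 h heads had 47.9% to 94.7% (median 78.7%, 72.7% ± 16.6, n = 7) and 24 h bodies 41.0% to 77.5% (median 63.8%, 62.0% ± 12.2, n = 9). Sucrose heads had 70.1% to 86.8% (76.1% ± 4.98, n = 9) and sucrose bodies 50.1% to 76.6% (63.1% ± 8.16, n = 9). The lowest 24 h head values, 47.9% and 52.6%, rested on 264 and 209 read counts summed over the 5 members, and the highest, 94.7%, on 131, while the shallowest 24 h sample had 24 and stood at 78.7%. The 5 members lie close together, so separate reads are fewer than these sums. Its tissue difference was 13.4 points over all 5-aza-dC samples (adjusted p = 0.00953) and 7.91 points over 11 members in 24 h samples alone (adjusted p = 0.229), both by the quasi-binomial F test.

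**Figure D5:**
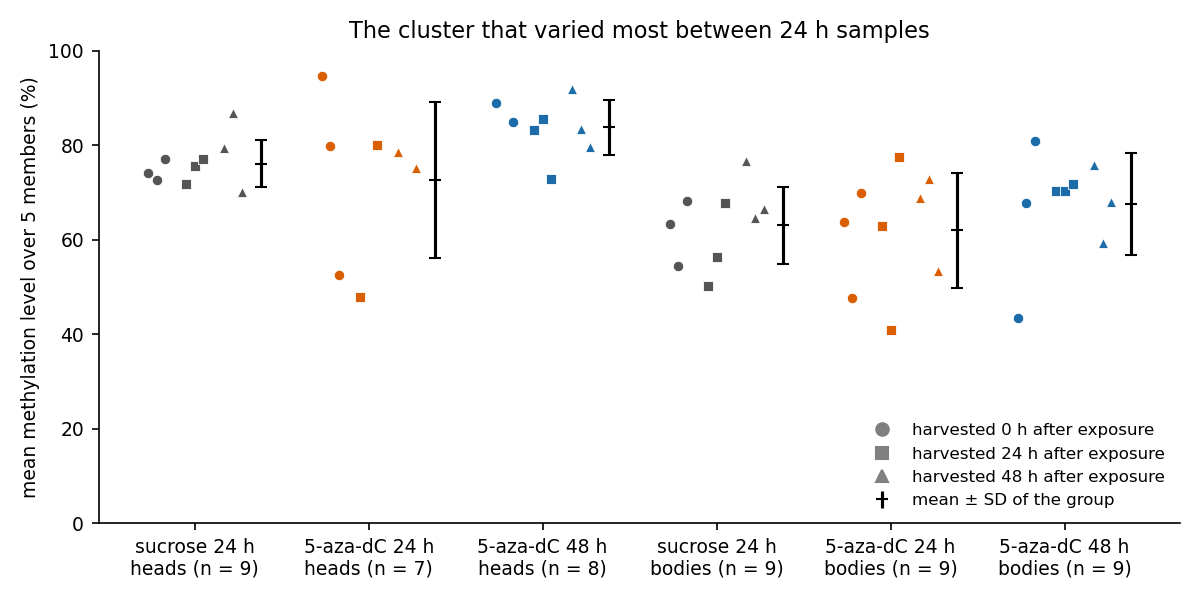
Mean methylation level (%) over the last 5 members of the cluster starting at 3411787, one point per sample, by regime and tissue; circles, squares and triangles mark harvest 0, 24 and 48 h after exposure. Bars are the mean ± SD; 24 h heads range from 47.9% to 94.7%, while sucrose heads range from 70.1% to 86.8%.

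No harvest time difference was called in the samples fed 5-aza-dC. No cluster of the 340 (0% of all, and 0 of 23 on chromosome 5) and no CpG of the 20459 (0%, and 0 of 160 members) passed for harvest time by the quasi-binomial F test or by limma. Unadjusted p-values under 0.05 were found at 1 chromosome 5 cluster and 15 members (41 clusters and 1359 CpGs over all sequences), and by limma at 2 clusters and 8 members. The 24 h samples alone also gave 0% over all sequences, with 0 of 92 clusters and 0 of 624 members called. There, 6 of the 92 clusters and 26 of the 624 members had an unadjusted p under 0.05. These 24 h shares are near 0.05, the share that chance alone gives at this cut. Counts over all sequences are not given for them or for the unadjusted values by limma. In the main model, 41 of 340 clusters, 1359 of 20459 CpGs and 15 of 160 members exceed that share, whereas 1 of 23 chromosome 5 clusters does not. The excess was not tested. Over the 160 members, 24 h bodies had 81.2% ± 0.638, 81.8% ± 1.37 and 81.5% ± 1.16 at 0, 24 and 48 h after feeding (n = 3 each), and 48 h bodies 82.1% ± 1.72, 83.0% ± 0.271 and 83.8% ± 1.77 (n = 3 each). The 24 h heads had 88.1% ± 0.497 (n = 3), 87.4% (n = 2) and 88.0% (n = 2), and the 48 h heads 88.7% (n = 2), 89.6% ± 0.963 and 89.9% ± 1.30 (n = 3 each). The times of a group differed by about as much as its samples did.

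Whether the tissue difference itself changed was tested by interaction terms. Neither the interaction of tissue with exposure length nor that of tissue with harvest time was called at any of the 340 clusters (0% for each, and 0 of 23 on chromosome 5) by the quasi-binomial F test or by limma. At an unadjusted p under 0.05 there were 1 and 0 chromosome 5 clusters (13 and 16 over all sequences), and 0 and 0 by limma.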

How the data were processed

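The authors deposited, for each CpG and sample, a methylated read count and a total read count, not normalized. DNA was treated with the EZ DNA Methylation kit, made into TruSeq DNA methylation libraries and read on a HiSeq instrument, per the labels' protocols. The submitters' processing notes name cutadapt 1.12, Bismark 0.16, Bowtie2, SAMtools, methylKit 0.99.3 and R 3.3.1, with no roles. The genome build, filters and removal of duplicate reads are not given in the sources used here. Read totals follow the deposited CpGs and are not library depth.

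The clusters, members and tests were chosen with earlier results of these data known. The level of a cluster in a sample is the mean over its members with reads. The quasi-binomial logistic regression (Python 3.11.15, numpy 2.4.6, scipy 1.17.1, pandas 2.3.3, matplotlib 3.10.9) summed methylated and total read counts over a cluster's members, took the dispersion from Pearson residuals with a floor of 1, and used F tests with Benjamini-Hochberg adjustment over all features of the whole table and a threshold of 0.05. It was tested on simulated data. Alternatives were limma 3.58.1 in R 4.3.3 on arcsine-square-root values, other read minimums and filters, other samples, a background covariate, other cluster rules, and leaving out each sample. Fits of 24 h or 48 h samples alone, and without the 2 shallowest samples, were added after the coverage had been seen. Named clusters are the 5 with the most members and up to 5 called per term and direction with the largest difference, and named CpGs follow the same order; the 8 members low against sucrose and the most variable cluster were chosen after their values were seen. Samples are biological replicates per the labels' protocols, and at most 1.88% of member counts were identical between 2 samples of a group. Heads and bodies were treated as independent, although they may come from the same females. Intervals for single reads are not given, since PCR copies are not independent.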

Additional observations from a re-analysis of the deposited data

Results flagged for a closer look

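Groups of 7 to 9 samples were examined by regime and tissue, for means over members, named clusters and named CpGs. Chance alone gives a gap larger than Dixon's 95% limit in about 1 in 20 groups. Of the 164 groups, 13 had 1 sample set apart from the rest of its group by such a gap.

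The shallow head sample (replicate 1, taken 48 h after the 24 h exposure) accounted for 3 of them. It stood at 100% in the cluster starting at 123020 (others 79.9% to 88.0%), at 100% at the CpG at 3925635 (others 57.8% to 73.5%) and at 63.6% at the CpG at 8120311 (others 19.7% to 38.5%). The other shallow sample, body replicate 1 taken 0 h after the 48 h exposure, had 0% at 123094, on 4 reads (lowest of the others 35.6%).

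Among the other 24 h samples, replicate 1 of heads harvested at 0 h had 87.9% in the cluster starting at 4576891, and replicate 3 of that group had 93.4% in the cluster starting at 8137080. Replicate 3 of bodies harvested at 48 h had 94.7% at 7995774 and 14.3% at 8904691. Replicate 2 of bodies harvested at 24 h had 42.9% at 8130069.

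In sucrose samples, 1 head sample had 72.6% in the cluster starting at 123020 and another 71.3% in that starting at 8410847. A body sample had 71.4% in the cluster starting at 5076402 and another 48.8% at 7995774.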

How the results depend on the processing

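No result reversed under the alternatives run. Of the 23 chromosome 5 clusters, 22 were called between tissues with any 1 sample left out, 13 of 14 with 10 reads in at least 30 of 33 samples, and 73 of 92 in 24 h samples alone; the cluster at 3411787 lost its call there. Member CpGs called between tissues, 53 in the main model, numbered 41 to 52 with 1 sample left out, 21 by limma, 35 with 10 reads, 19 with no filter on the mean (over 1086273 CpGs), 20 in 24 h samples alone and 1 in 48 h samples alone. For 48 h against 24 h, the 1 cluster became 0 by limma, 0 without the body samples whose title gives another harvest time, 3 with 1 member required, 2 with background as a covariate, and 0 to 2 with 1 sample left out. The 5 CpGs became 1 by limma, 1 with no filter, 2 without those body samples, 3 with the covariate, and 1 to 7 with 1 sample left out. Most of these counts, for tissue and for exposure length, stand without the share over all sequences. They therefore do not show whether members lost calls more readily than other features. Besides 8006593, which kept its call, 8120308 and 8130069 also lost theirs without head replicate 1 of the 24 h exposure taken 24 h later. For harvest time, 1 cluster was called with all 51 samples (7 of 340 over all sequences), a fit that holds the sucrose samples that chose the members and so supports nothing. Fewer features or samples were tested in several of these; otherwise the cause was not tested. Runs of at least 5 CpGs gave 58 clusters, and a sucrose mean of at least 80% gave 454 members. Leaving out a sucrose sample gave 101 clusters each time and 679 to 685 members.

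No paired analysis was possible because the labels number the samples in one running series and give no replicate numbers that groups share. Low read counts at single CpGs limit precision, and few members have 48 h reads.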
